A study of Mus musculus with 18 samples.

Results

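The genes described are 8 members of the interferon regulatory factor family, Irf1, Irf2, Irf3, Irf4, Irf5, Irf7, Irf8 and Irf9, out of 37991 genes listed in each of 18 RNA-seq libraries. They were taken by gene name, and all 8 had enough reads to be tested. The libraries were made from splenic CD4 T cells of Tg4-H2u mice aged 6 to 12 weeks, in which a TCR transgene directs the T cells to a peptide of myelin basic protein, and each of 6 groups has 3 libraries. Naive cells (N0) came from mice given the PBS vehicle on the schedule used for tolerization, and tolerant cells (T0) from mice given escalating doses of the 4Y peptide in 7 subcutaneous injections. NAg and TAg cells were taken from such mice 2 h after a final injection of 80 µg of peptide antigen (Ag). N0 and T0 mice were given a final injection of PBS instead, also 2 h before harvest. NPI and TPI cells were treated in culture for 2 h with PMA at 20 ng/ml and the calcium ionophore A23187 at 2 µM (PI). Ag therefore acted through the TCR in the animal, whereas PI bypassed the receptor in culture, and the effects of the agent and of culture cannot be told apart.

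Interferon regulatory factors share an amino-terminal DNA-binding domain that recognizes GAAA repeats in interferon-stimulated response elements. IRF3 and IRF7 are activated by phosphorylation downstream of nucleic acid sensors and drive type I interferon genes, IRF9 is the DNA-binding subunit of the ISGF3 complex, IRF1 is induced by interferon-gamma, and IRF2 opposes IRF1 at shared sites. IRF4 and IRF8 bind weakly alone and act with partners such as BATF-JUN dimers and PU.1, and IRF4 is best known in T cells as a factor whose level follows the strength of TCR signaling. IRF5 and IRF8 are characteristic of B cells and myeloid cells.

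Promoter sequences were read from RefSeq (GRCm38.p6, a later build than the one used for counting), 250 bases before to 50 bases after the annotated start. All 8 members matched, with 11 windows. Both strands were searched for TTCNNNGAA, the core of the GAS element of interferon-gamma-responsive genes, for GAAANNGAAA, the core of the interferon-stimulated response element, for TGANTCA, the AP-1 element, for the NF-kB consensus, and for TGGAAA, the core of the NFAT element. The Irf1, Irf2, Irf4 and Irf8 windows are shown because Irf1, Irf4 and Irf8 rose and Irf2 fell after both stimuli in both cell states. Matches are in capitals, except those of the short NFAT core.

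Irf1 promoter, chr11:53769764-53770063, plus strand: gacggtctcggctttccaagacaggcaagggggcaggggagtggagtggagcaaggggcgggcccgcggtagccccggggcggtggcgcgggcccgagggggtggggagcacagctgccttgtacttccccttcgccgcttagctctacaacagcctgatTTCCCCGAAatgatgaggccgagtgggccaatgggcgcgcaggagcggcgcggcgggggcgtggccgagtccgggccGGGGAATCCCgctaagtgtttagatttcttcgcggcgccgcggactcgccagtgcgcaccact

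Irf2 promoter, chr8:46739495-46739794, plus strand: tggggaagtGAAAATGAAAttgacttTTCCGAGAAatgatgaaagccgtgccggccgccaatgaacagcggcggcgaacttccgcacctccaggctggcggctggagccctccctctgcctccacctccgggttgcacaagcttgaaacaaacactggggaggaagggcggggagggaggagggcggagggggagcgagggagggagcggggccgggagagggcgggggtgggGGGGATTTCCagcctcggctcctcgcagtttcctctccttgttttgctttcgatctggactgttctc

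Irf4 promoter, chr13:30748983-30749282, plus strand: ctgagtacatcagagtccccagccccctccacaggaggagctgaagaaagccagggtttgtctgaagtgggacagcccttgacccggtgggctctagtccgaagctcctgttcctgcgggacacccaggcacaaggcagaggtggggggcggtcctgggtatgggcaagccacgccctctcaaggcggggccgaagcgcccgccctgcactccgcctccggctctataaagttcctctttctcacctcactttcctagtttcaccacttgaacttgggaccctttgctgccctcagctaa

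Irf8 promoter, chr8:120736108-120736407, plus strand: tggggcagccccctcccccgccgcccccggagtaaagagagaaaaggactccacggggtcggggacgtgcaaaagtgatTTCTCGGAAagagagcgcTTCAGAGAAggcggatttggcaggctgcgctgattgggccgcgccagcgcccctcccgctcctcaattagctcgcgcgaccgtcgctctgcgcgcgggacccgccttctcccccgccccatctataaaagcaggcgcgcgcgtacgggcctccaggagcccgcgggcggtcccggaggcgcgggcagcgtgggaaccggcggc

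The Irf1 window holds a GAS match whose first base lies 90 bases before the start and an NF-kB match 13 bases before it. The Irf2 window holds a response element match at 241, a GAS match at 224 and an NF-kB match at 17 bases before the start. The Irf8 window holds GAS matches at 171 and 153 bases before the start, and the Irf4 window holds no match. The NFAT core lies 238 bases before the start in the Irf1 window and 12 bases before it in the Irf2 window. Irf1 and Irf8 each have another window, not shown, that holds no match. No window of Irf3, Irf5, Irf7 or Irf9 holds a match. Of 32817 promoter windows of this length, 8.29% hold a GAS match, 3.43% a response element match, 4.5% an NF-kB match, 7.81% an AP-1 match and 21.4% an NFAT core. A match describes the letters of these windows and does not show that a factor binds there.

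Total counts ranged from 10758571 to 24119489 per library and were highest after PI. Values are given as normalized counts, which are counts divided by the TMM-scaled library size relative to the geometric mean of all libraries. A gene was called at an adjusted p under 0.05, a change of at least 2-fold and a mean above 50 normalized counts in whichever group was higher, and it passed where the adjusted p alone was under 0.05. T cell transcripts defined every group, with summed counts of 7 T cell markers between 15031 and 56963 per library, against 51.3 to 259.5 for the CD8 markers. The T cell sum averaged 29425 in N0, 26824 in T0, 15681 in NAg, 21191 in TAg, 51154 in NPI and 55117 in TPI. Cd28 alone had means of 26002 in NPI and 26034 in TPI. In NAg:N0, 5 of the 7 T cell markers were called lower, where 16.2% of all tested genes were. Other cells were also present: the sum of 8 B cell markers ranged from 372 to 2993, and 7 neutrophil markers summed to 2445 ± 728 in T0 but 102 ± 51.6 in N0 (SD, n = 3 each). The neutrophil sum was also higher in TAg (2499.5 ± 857) than in NAg (219.7 ± 93.2), and in TPI (507 ± 144) than in NPI (99.9 ± 61.1). The marker covariates used below are B cell and macrophage scores and hold none of these 7 neutrophil markers. Lyz2, part of the macrophage score, was also higher in each tolerant group. Its means were 207 in N0 and 1082 in T0, 245 in NAg and 845 in TAg, and 157 in NPI and 371 in TPI. The part of neutrophils in the differences between tolerant and naive cells was not tested. Genes of the Y chromosome were expressed in all NPI and TPI libraries, in 2 T0 libraries and in 1 TAg library, but had at most 15 reads in any N0 or NAg library, so the sex of the mice and PI treatment cannot be told apart in naive cells. In bulk samples fewer cells of a type and less RNA per cell cannot be told apart.

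**Figure D1:**
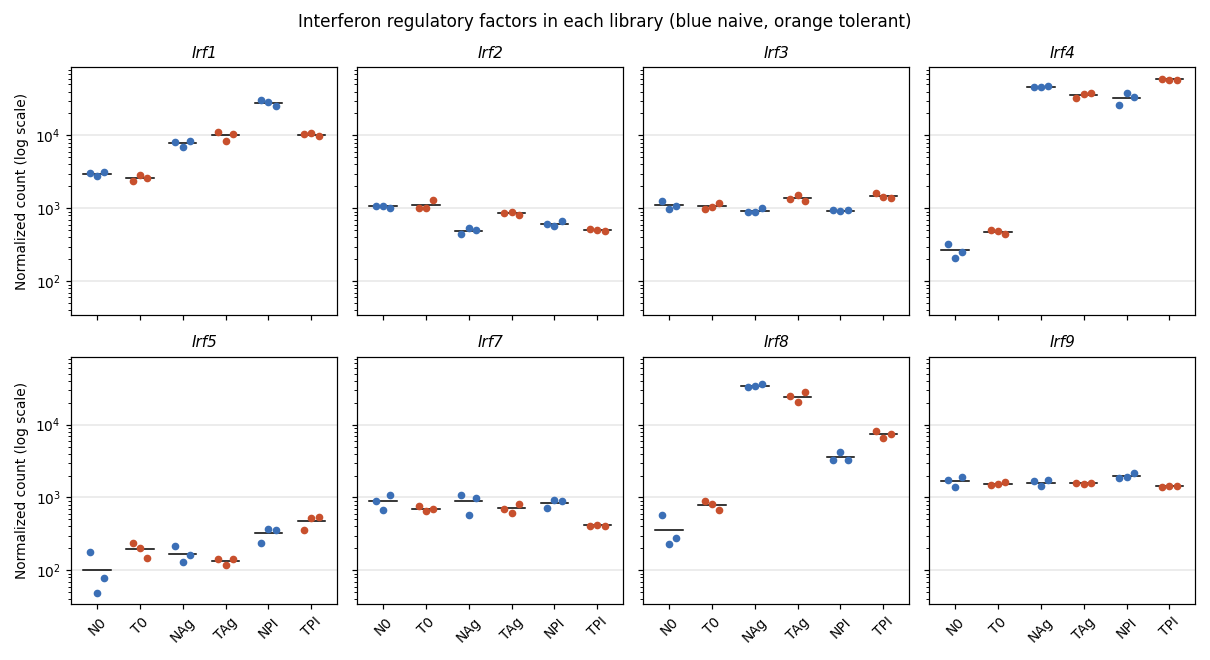
Normalized counts of the 8 genes in each of 18 libraries on a log scale, with naive groups in blue, tolerant groups in orange and the mean of 3 libraries as a black line. Irf4 rose from 265 in N0 to 46762 in NAg, whereas Irf9 stayed between 1417 and 1973 as group means.

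Irf4, on chromosome 13 from 30841095 to 30858796 (NCBIM37, plus strand), made the largest response of the family. Its normalized counts in N0 were 329, 211 and 256, and in T0 they were 505, 483 and 447. After Ag they reached 46112, 46679 and 47495 in NAg and 32978, 36779 and 37775 in TAg. After PI they were 26118, 37998 and 34101 in NPI and 59929, 58037 and 57672 in TPI. Every stimulated library lay above every unstimulated one, all T0 libraries lay above all N0 libraries, and the TPI libraries were the highest of all. Ranked by reads among all genes, Irf4 was at place 6562 in N0 and 13 in NAg, and at 4659 in T0 and 11 in TAg.

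The log2 fold change of Irf4 was 7.46 (SE 0.16) in NAg:N0, 6.23 (SE 0.15) in TAg:T0, 6.95 (SE 0.16) in NPI:N0 and 6.93 (SE 0.16) in TPI:T0 (edgeR quasi-likelihood test, adjusted p = 1.6e-19, 1.8e-18, 1.1e-18 and 4.1e-19). The Ag response was smaller in tolerant cells by 1.23 on the log2 scale (SE 0.18, edgeR adjusted p = 4.4e-05). This smaller response started from a higher level: Irf4 in T0 was 1.8-fold that in N0 (log2 fold change 0.85, SE 0.14, edgeR adjusted p = 0.00017). After Ag the tolerant cells were lower by 0.38 on the log2 scale (SE 0.12, edgeR adjusted p = 0.014), a difference that did not pass with B cell and macrophage marker scores as covariates (log2 fold change -0.29, edgeR adjusted p = 0.064) or without TAg replicate 1 (-0.33, edgeR adjusted p = 0.07). The PI responses differed by -0.011 on the log2 scale, with a 95% interval from -0.38 to 0.36, and TPI lay above NPI by 0.84 (SE 0.12, edgeR adjusted p = 1e-05).

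Irf8, on chromosome 8 from 123260258 to 123280594 (NCBIM37, plus strand), is a close relative of Irf4 otherwise typical of B cells, macrophages and dendritic cells. Against 176-fold in NAg:N0 and 74.9-fold in TAg:T0 for Irf4, Irf8 rose 93.7-fold and 30.6-fold. Its normalized counts were 573, 232 and 279 in N0 and 886, 802 and 679 in T0. They were 32270, 33966 and 35466 in NAg and 24709, 20087 and 27605 in TAg. After PI they were only 3257, 4249 and 3314 in NPI and 8272, 6450.4 and 7493 in TPI. No 2 groups overlapped, and the order of means was N0, T0, NPI, TPI, TAg, NAg.

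The log2 fold change of Irf8 was 6.55 (SE 0.31) in NAg:N0 and 4.93 (SE 0.29) in TAg:T0, against 3.32 (SE 0.28) in NPI:N0 and 3.23 (SE 0.27) in TPI:T0 (edgeR quasi-likelihood test, adjusted p = 2.2e-10, 2.9e-09, 1.7e-07 and 1.2e-07). The Ag response was smaller in tolerant cells by 1.62 on the log2 scale (SE 0.36, edgeR adjusted p = 0.0061). This smaller response started from a higher level: T0 lay above N0 by 1.13 on the log2 scale, a call lost in several fits given below. The PI responses differed by -0.088, with a 95% interval from -0.87 to 0.70. After PI, Irf8 was 9.4-fold lower than after Ag in naive cells and 3.26-fold lower in tolerant cells (edgeR adjusted p = 9.4e-08 and 3.8e-05). The direct difference TAg:NAg did not pass (log2 fold change -0.49, 95% interval -1.02 to 0.034, edgeR adjusted p = 0.13), although the groups did not overlap. With only the groups compared in the fit it did pass (log2 fold change -0.60).

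At rest, Irf8 was the only member called in T0:N0, at 2.18-fold (log2 fold change 1.13, SE 0.27, edgeR adjusted p = 0.01); 3.25% of all tested genes were called in this comparison. The call was lost with only the groups compared in the fit (log2 fold change 1.20, edgeR adjusted p = 0.13), with a sex term (0.91, edgeR adjusted p = 0.096), with the marker covariates (0.99, under 2-fold), and without N0 replicate 2 or N0 replicate 3 (0.88 and 0.96, under 2-fold), and 3 members were called without N0 replicate 1. The N0 library with the highest Irf8, 573, also had the highest sum of B cell markers in N0, 1991. Its sums of macrophage and monocyte (988), dendritic cell (850), neutrophil, erythroid, CD8 and NK markers were the highest in N0 too. The 8 macrophage and monocyte markers summed to 867 ± 148 in N0 and 2136 ± 311 in T0 (SD, n = 3 each). Most of this difference lay in Lyz2, with means of 207 in N0 and 1082 in T0, and Mpeg1, with 348 and 697, whereas Cd68 had 84.4 and 80.8, Adgre1 58.9 and 55.2, C1qa 13.4 and 3.9, and C1qb 18.2 and 4.0. The part of these cells in the resting Irf8 difference was not tested beyond the marker covariates. In NAg, Irf8 had 32270 to 35466. The marker sums in NAg were 496 to 1737 for B cells, 845 to 2156 for macrophages and monocytes, and 399 to 581 for dendritic cells. Which cells carried the Irf8 reads after Ag was not tested.

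**Figure D2:**
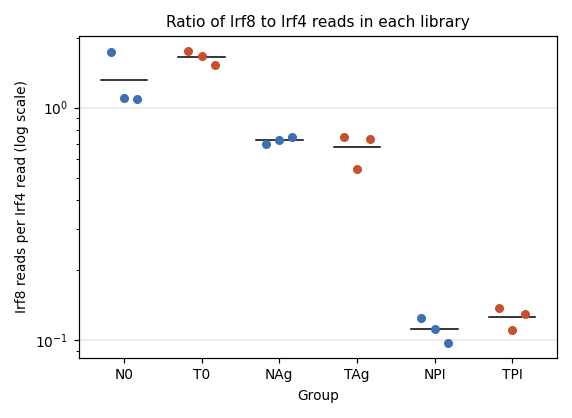
Reads of Irf8 per read of Irf4 in each library, on a log scale, with the group mean as a black line. The ratio was 1.31 in N0 and 1.65 in T0, 0.725 in NAg and 0.675 in TAg, and 0.111 in NPI and 0.126 in TPI.

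The ratio of Irf8 to Irf4 reads was 1.31 ± 0.37 in N0 and 1.65 ± 0.12 in T0, 0.725 ± 0.024 in NAg and 0.675 ± 0.11 in TAg, and 0.111 ± 0.014 in NPI and 0.126 ± 0.014 in TPI (SD, n = 3 each). The libraries of naive and tolerant cells overlapped in this ratio within each condition, and the 3 conditions did not overlap. Per kilobase of exon, which allows levels of different genes to be compared, Irf4 (726 ± 10.8 RPKM, reads scaled for exon length and library depth) and Irf8 (352 ± 16.6) were the highest members in NAg, whereas Irf1 (517 ± 44.6) and Irf4 (508 ± 94) were highest in NPI. With the length of the longest transcript in place of all exons, Irf8 had 715 ± 33.8 against 726 for Irf4 in NAg, and Irf1 had 961 ± 83 against 508 for Irf4 in NPI, so the distances between members depend on the length used. At rest Irf1 was highest by either length, with 55.1 ± 3.23 RPKM in N0 and 48.3 ± 4.81 in T0 over all exons. The 8 genes together took 0.0762 ± 0.0088% of all reads in N0 and 0.63 ± 0.015% in NAg.

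Irf1, on chromosome 11 from 53583516 to 53591876 (NCBIM37, plus strand), was already expressed at rest and rose most in naive cells treated with PI. Its normalized counts were 3039, 2797 and 3138 in N0 and 2352, 2873 and 2639 in T0. They were 8164, 6962 and 8358 in NAg and 11080, 8471 and 10467 in TAg. In NPI they were 30165, 28620 and 25416, but only 10340, 10686 and 9676 in TPI. The NPI libraries stood above all others, whereas TAg and TPI overlapped.

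The log2 fold change of Irf1 was 3.23 (SE 0.11) in NPI:N0 and 1.97 (SE 0.10) in TPI:T0, a difference of -1.27 (SE 0.14, edgeR adjusted p = 6.1e-07). TPI was 2.74-fold below NPI (log2 fold change -1.46, SE 0.10, edgeR adjusted p = 7.9e-11). Ag gave the opposite order: 1.39 (SE 0.10) in NAg:N0 and 1.93 (SE 0.10) in TAg:T0, a difference of 0.54 (SE 0.14, edgeR adjusted p = 0.0058). TAg lay above NAg by 0.35 (SE 0.10, edgeR adjusted p = 0.0054), which did not pass without TAg replicate 1 (0.27, edgeR adjusted p = 0.053). A predicted gene on the other strand, Gm17334, shares 135 exon bases with Irf1 and had at most 31 reads per library.

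Irf2, on chromosome 8 from 47825099 to 47932812 (NCBIM37, plus strand), fell in every stimulated group. Its normalized counts were 1093, 1080.5 and 1012 in N0 and 1017, 1026 and 1293 in T0. They were 452, 531 and 504 in NAg and 859.8, 889 and 804 in TAg. They were 605, 572 and 671 in NPI and 514, 500.5 and 495 in TPI. NAg and TPI were lowest and overlapped, and TAg kept more Irf2 than the other stimulated groups.

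The log2 fold change of Irf2 was -1.10 (SE 0.09) in NAg:N0, -0.39 (SE 0.09) in TAg:T0, -0.78 (SE 0.09) in NPI:N0 and -1.14 (SE 0.09) in TPI:T0 (edgeR quasi-likelihood test, adjusted p = 1e-10, 0.00053, 4.7e-08 and 4.9e-11). The Ag response differed by 0.71 between cell states (SE 0.13, edgeR adjusted p = 0.00021), and TAg exceeded NAg by 0.78 (SE 0.09, edgeR adjusted p = 4.7e-07). The PI responses differed by -0.36 (SE 0.13, edgeR adjusted p = 0.046), which did not pass with the marker covariates (edgeR adjusted p = 0.056), or in 9 of the 12 fits that left out 1 library.

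Irf3, the latent factor downstream of nucleic acid sensors, was higher in tolerant than in naive cells after either stimulus, whereas T0:N0 did not pass (log2 fold change -0.046, 95% interval -0.24 to 0.15). The 3 libraries ranged from 987 to 1259 in N0, from 968 to 1199 in T0, from 879 to 1009.6 in NAg and from 921 to 946 in NPI. They ranged from 1252 to 1515 in TAg and from 1403 to 1619 in TPI, and these did not overlap with the naive groups of the same stimulus. The log2 fold change was 0.57 (SE 0.10) in TAg:NAg and 0.67 (SE 0.09) in TPI:NPI (edgeR adjusted p = 4.9e-05 and 4.9e-06). The response differed between cell states by 0.61 for Ag and 0.71 for PI (SE 0.13 each, edgeR adjusted p = 0.0017 and 4e-04). In naive cells the values were lower after stimulation by 0.25 (Ag) and 0.24 (PI) on the log2 scale, and neither passed with DESeq2. In tolerant cells they were higher by 0.36 (Ag) and 0.47 (PI), with SE 0.09 each (edgeR adjusted p = 0.0018 and 0.0001). Both of these rises passed under every alternative tried. Bcl2l12 on the other strand shares 88 exon bases with Irf3.

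Irf7, a factor that is itself interferon-inducible and amplifies type I interferon, did not pass in either Ag comparison. Its normalized counts were 707, 934 and 903 in NPI and 412, 426 and 408 in TPI, and the TPI libraries were the lowest of all 18. TPI was 2.04-fold below NPI (log2 fold change -1.03, SE 0.22, edgeR adjusted p = 0.0019), and TPI:T0 was -0.76 (SE 0.22, edgeR adjusted p = 0.0071). The difference in PI response did not pass (-0.69, 95% interval -1.35 to -0.033, edgeR adjusted p = 0.14), and it passed with DESeq2, with only the groups compared and with the marker covariates. The log2 fold change was -0.0076 in NAg:N0 (95% interval -0.47 to 0.45) and 0.020 in TAg:T0 (95% interval -0.44 to 0.48). Phrf1 on the other strand shares 45 exon bases with Irf7.

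Irf9, the DNA-binding subunit of ISGF3, had the narrowest range, with group means from 1417 in TPI to 1973 in NPI, a 1.39-fold spread. It did not pass in NAg:N0 (log2 fold change -0.068, 95% interval -0.25 to 0.12) or TAg:T0 (0.030, 95% interval -0.16 to 0.22). TPI was below NPI by 0.48 on the log2 scale (SE 0.09, edgeR adjusted p = 0.00014). TPI:T0 did not pass (-0.12, 95% interval -0.31 to 0.064), and NPI:N0 was 0.23 (SE 0.09, edgeR adjusted p = 0.0285). The latter did not pass with only the groups compared, with the marker covariates or with a sex term. A sex term cannot separate sex from PI in naive cells. Irf9 shares 123 exon bases with Rnf31 on the same strand, a gene with 1219 to 2938 reads per library, so its counts are uncertain.

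Irf5, the member typical of B cells and myeloid cells, had the lowest mean count of the 8 in NAg, TAg, N0, T0 and NPI, and Irf7 the lowest in TPI. The libraries ranged from 49.1 to 179 in N0, 146 to 236 in T0, 130.4 to 213 in NAg, 117 to 145 in TAg, 236 to 366 in NPI and 354 to 534 in TPI. PI libraries lay above unstimulated ones of the same cell state, with a log2 fold change of 1.64 (SE 0.38) in NPI:N0 and 1.27 (SE 0.35) in TPI:T0 (edgeR adjusted p = 0.0018 and 0.0054). The first did not pass with a sex term (1.27, edgeR adjusted p = 0.076), which cannot separate sex from PI in naive cells. The N0 library with the most Irf5, 179, was the one with the B cell marker sum of 1991. That library also had the highest macrophage, dendritic cell, neutrophil, erythroid, CD8 and NK marker sums in N0. Irf5 shares 411 exon bases with Tnpo3 on the other strand, which had 1752 to 4693 reads per library; whether the counting used strand is not given in the sources used here, so Irf5 values are uncertain.

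**Figure D3:**
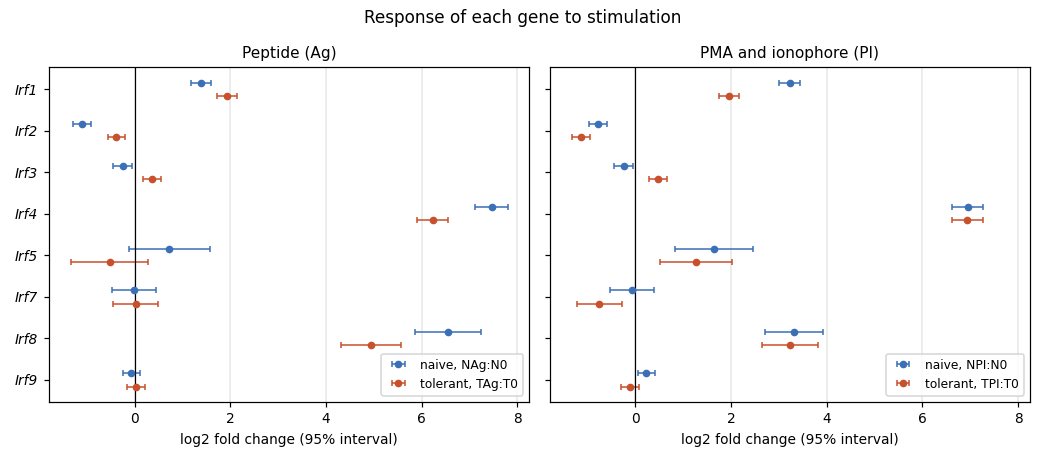
Log2 fold change of each gene after Ag (left) and PI (right) with its 95% interval, for naive cells in blue and tolerant cells in orange. The Irf4 response to Ag was 7.46 in naive and 6.23 in tolerant cells, and the responses to PI were 6.95 and 6.93.

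Counted over the family, 4 members were called in NAg:N0 (30.3% of all tested genes were), 3 in TAg:T0 (23.4%), 4 in NPI:N0 (20.3%) and 5 in TPI:T0 (27.1%). Irf1, Irf4 and Irf8 were called higher in each of these, Irf5 was added after PI, and Irf2 was called lower in NAg:N0 and TPI:T0 (16.2% and 13.7% of genes were called lower). With the marker covariates Irf2 in NAg:N0 was under 2-fold (log2 fold change -0.95). The median log2 fold change of the 8 members was 0.36, 0.20, 0.94 and 0.87 in these comparisons, against 0, -0.053, -0.059 and -0.10 over all tested genes. Of the differences in response, 2 members (Irf4 and Irf8) were called for Ag (5.27% of genes) and 1 (Irf1) for PI (3.21%), and 5 and 3 members passed (21.7% and 20.2%). These comparisons share libraries. Between PI and Ag, comparisons added after values were seen, 2 members (Irf1 and Irf8) were called in NPI:NAg (27.5% of genes) and 2 (Irf5 and Irf8) in TPI:TAg (25.5%).

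Between tolerant and naive cells after Ag, no member was called by edgeR, against 5.66% of genes, and none by DESeq2. At an unadjusted p under 0.05 there were 4, which also passed (39.4% of genes did), of which Irf1, Irf2 and Irf3 were higher and Irf4 lower in TAg. After PI, 3 members were called (5.60% of genes): Irf8 higher, and Irf1 and Irf7 lower in TPI. Without NPI replicate 3, only Irf1 was called, since Irf7 and Irf8 lay under 2-fold (log2 fold change -0.98 and 0.98). The smallest changes on leaving out 1 library were -0.96 for Irf7 and 0.97 for Irf8. Each gene therefore also lay under 2-fold without a library other than NPI replicate 3.

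**Figure D4:**
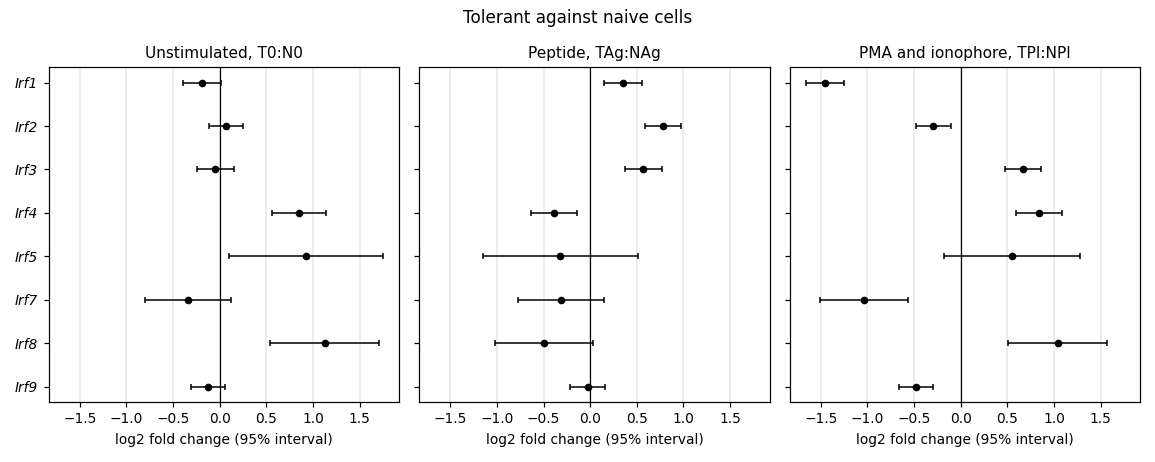
Log2 fold change between tolerant and naive cells with its 95% interval, unstimulated (left), after Ag (middle) and after PI (right). Irf4 was 0.85 at rest, -0.38 after Ag and 0.84 after PI, and Irf1 was 0.35 after Ag and -1.46 after PI.

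Of 17 listed partner genes, 3 were called higher and 2 lower in NAg:N0, where 14.2% and 16.2% of all tested genes were, with a median log2 fold change of 0.31 against 0 over all genes. Batf, which pairs with JUN proteins and binds with IRF4 and IRF8, rose by 3.62 in NAg:N0 (SE 0.22) and 3.00 in TAg:T0 (SE 0.21), and its mean normalized count was 2121 in NAg and 1649.8 in TAg. After PI it was 437 in NPI and 994 in TPI, and TPI:NPI was 1.19 (SE 0.20, edgeR adjusted p = 0.00024). Jun had 1233 in NAg and 2788 in TAg but 19952 in NPI and 13968 in TPI. Def6, an inhibitor that binds IRF4, fell by 2.75 in NAg:N0 (SE 0.12) and 2.03 in TAg:T0 (SE 0.11), while its homologue Swap70 rose by 2.36 in NAg:N0 (SE 0.30). Spi1, which encodes PU.1 and is read in myeloid and B cells, was called higher in T0:N0, with means of 56.2 in N0 and 127 in T0 (log2 fold change 1.17, SE 0.28, edgeR adjusted p = 0.0065). It was also called higher in TAg:NAg, with 53.7 in NAg and 122 in TAg (log2 fold change 1.19, SE 0.29, edgeR adjusted p = 0.0032).

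Of 5 genes that IRF4 is known to bind in T cells, 3 were called higher in T0:N0 (Il10, Ctla4 and Prdm1), 3 in TAg:NAg (Il10, Il21 and Prdm1) and 4 in TPI:NPI (Il10, Il21, Ctla4 and Prdm1), and none was called lower; 2.61%, 3.61% and 3.38% of all genes were called higher. The median log2 fold change was 1.66 in TAg:NAg, against 0.011 over all genes. The authors had already reported Il10, Il21, Ctla4 and Prdm1 as higher in tolerant cells from these data. This list was chosen with those results known, so its counts and median cannot test whether IRF4 targets as a class were higher. Il10 had 82.4 ± 37.4 normalized counts in NAg and 3430 ± 315 in TAg, and 526 ± 59.8 in NPI and 16297 ± 5224 in TPI. The fifth gene, Il4, passed in none of these 3 comparisons, with means of 4.65 in NAg and 1.87 in TAg, and 141 in NPI and 85.7 in TPI. The difference in Ag response was called for 1 of the 5, Ctla4, at -1.23 (SE 0.27, edgeR adjusted p = 0.0043).

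Genes upstream of IRF3, IRF5 and IRF7 went both ways. Of 17 sensors and kinases, 4 were called higher and 3 lower in NAg:N0, and 4 and 4 in TPI:T0, where 13.3% of genes were called higher and 13.7% lower. Tank, a scaffold of the TBK1 kinase, had 9187 as the mean in TPI against 2890.5 in NPI, with a difference in PI response of 1.70 (SE 0.16, edgeR adjusted p = 3.5e-07). Tmem173, which encodes STING, had 1883 in TAg against 904 in NAg (log2 fold change 1.06, SE 0.08, edgeR adjusted p = 7.2e-10). Ikbke fell from 5709 in N0 to 1325 in NAg.

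The interferon signaling genes and the ISGF3 and IRF1 target lists completed the pathway. Of 8 receptor, kinase and cytokine genes, 2 were called higher and 2 lower in NAg:N0, where 14.2% and 16.2% of all tested genes were. Ifng rose by 4.25 (SE 0.53) and Jak2 by 3.71 (SE 0.10). Ifnar1 (log2 fold change -1.81, SE 0.08) and Ifngr2 (-1.65, SE 0.14) were called lower. The median of the 8 was -0.70 against 0 over all genes. Ifngr2 also fell in T0:N0 by 1.29 (SE 0.13, edgeR adjusted p = 3e-06) and in TPI:NPI by 1.74 (SE 0.13, edgeR adjusted p = 2.9e-09). Of 9 ISGF3 targets, 0 were called higher and 3 lower in TPI:NPI (Usp18, Oasl2 and Ifit2), where 2.22% of genes were called lower. The median of the 9 targets was -0.79 against -0.038 over all genes, and Irf7 and Irf9 were also lower in TPI than in NPI. In TPI:T0, 1 was called higher (Isg15) and 6 lower, where 13.3% and 13.7% of genes were. In NPI:N0, 1 was called higher (Isg15) and 4 lower (Ifit2, Ifit1, Ifit3 and Usp18), where 10.3% of genes were called lower. The median in NPI:N0 was -1.18 against -0.059 over all genes. Of 5 IRF1 targets tested out of 6 listed, none was called in TPI:NPI by edgeR, where Irf1 was 2.74-fold lower, and 2 passed in the higher direction (18.2% of genes did). Gbp2 rose by 2.33 in NAg:N0 (SE 0.14) but had 588 in NPI against 646 in N0, whereas Cd274 rose by 3.33 in NAg:N0 (SE 0.11) and 3.99 in NPI:N0 (SE 0.12).

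The genes most like each member were taken by Pearson's r over 18 libraries among 11554 genes with an average normalized count above 50; these values reflect shared groups and libraries. Irf4 was most like Map3k8 (r = 0.996), Myc (0.992) and Bend3 (0.991), and Irf8 most like Fnip2 (0.991), Dgkh (0.99) and Bcat1 (0.989). Irf7 was most like Oasl1 (0.905), Mx2 (0.875) and Usp18 (0.859), and Irf9 most like Ifi27l2a (0.838), Srp9 (0.77) and Agrn (0.762). Irf5 was most like S1pr3 (0.943), Ncf1 (0.938) and H2-Eb1 (0.935), the last of these an MHC class II gene. Irf1 was most like Rbbp4 (0.958), Zc3h13 (0.957) and Rpl36a (0.948), Irf2 most like Yipf1 (0.975), Ccdc91 (0.975) and Chpf2 (0.975), and Irf3 most like Setd5 (0.876), Gnptab (0.872) and Socs5 (0.867).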

How the data were processed

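The authors aligned paired-end reads to mm9 (NCBIM37) with TopHat2 2.1.1, counted them per Ensembl gene with HTSeq 0.9.1 and deposited raw counts for each of 18 libraries, without normalization; strand and overlap settings are not given in the sources used here. Gene names, positions and overlaps came from an annotation of the same build. Counts of the 17240 genes that averaged 3 or more normalized counts in any group were fitted in R 4.3.3 with edgeR 4.0.16 (TMM, robust quasi-likelihood F test, 6 group means), and p-values were adjusted over all of them by the Benjamini-Hochberg method. Every adjusted p is from this test unless another is named. Differences in response were interaction contrasts. SEs were taken from the log2 fold change and F. Motifs were searched in RefSeq promoter windows.

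Members and gene lists were chosen with earlier results of these data known. The text names the 8 members, up to 4 called genes of each list per comparison with the largest change (all where 5 or fewer were called), and the 3 genes most like each member, besides genes that overlap a member. The 4-gene limit applies over the comparisons, and values of such a gene are also given for other groups.

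Replicate numbers were checked for pairing: correlations of deviations ranged from -0.411 to 0.252 and no comparison had all 3 pairs over 0.1, so they name libraries only. Alternatives were DESeq2 1.42.0, its size factors in edgeR, no filter, only the groups compared, the replicate block, marker covariates, a sex term (added after seeing the data) and leaving out each library. Only T0 and TAg held libraries both with and without reads of Y chromosome genes, so the sex term rests on these groups. p-values measure only the spread between the 3 samples within groups. In the main fit, all 6 groups shared 1 estimate of this spread. In simulated data for TAg:NAg over 17240 genes, 91 of 100 genes changed by 1 on the log2 scale and 100 of 100 changed by 2 passed. Of 17040 unchanged genes, 17 passed. Changed genes were drawn from those averaging above 100 normalized counts, and all other means were equal over the groups. The spread of each gene was that of the main fit, so these rates do not cover genes with fewer counts.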

Additional observations from a re-analysis of the deposited data

Results flagged for a closer look

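The response of 5 members to Ag differed between tolerant and naive cells by the interaction contrast of edgeR. The difference in log2 fold change was -1.23 for Irf4 (edgeR adjusted p = 4.4e-05), -1.62 for Irf8 (edgeR adjusted p = 0.0061), 0.54 for Irf1 (edgeR adjusted p = 0.0058), 0.71 for Irf2 (edgeR adjusted p = 0.00021) and 0.61 for Irf3 (edgeR adjusted p = 0.0017). The response to PI differed for 3 members, by -1.27 for Irf1 (edgeR adjusted p = 6.1e-07), -0.36 for Irf2 (edgeR adjusted p = 0.046) and 0.71 for Irf3 (edgeR adjusted p = 4e-04). At rest, T0 lay above N0 for Irf4 and Irf8 (log2 fold change 0.85 and 1.13). The Irf8 call at rest was lost in several fits. For Irf1 and Irf2 the differences had opposite signs for Ag and PI, and whether the 2 stimuli differed in this was not tested. Groups of 3 libraries were not examined for outlying samples.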

How the results depend on the processing

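The counts of called members kept within 1.5 times of the reported value under the alternatives tried, except in T0:N0 and TPI:NPI. In T0:N0, where Irf8 was called, 0 were called with only the groups compared, 0 with the marker covariates and 0 with the sex term, and leaving out 1 library gave 0 to 3. In TPI:NPI leaving out 1 library gave 1 to 3. Over single members, 20 values were no longer past the threshold under alternatives other than leaving out a library, 11 came past it and 21 changed sign, with 564 results keeping direction and side; every value that changed sign had not passed. The cause was not tested.

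The signs of these log2 fold changes turned. With only the groups compared, Irf3 in T0:N0 was 0.026, Irf7 in TAg:T0 -0.019, Irf9 in TAg:T0 -0.0069 and Irf3 in NPI:NAg -0.056. With the marker covariates, TAg:NAg was 0.13 for Irf5, 0.064 for Irf7 and 0.021 for Irf9, NPI:N0 was 0.14 for Irf7, NPI:NAg was 0.52 for Irf7 and -0.18 for Irf3, and the difference in PI response was 0.039 for Irf4 and 0.016 for Irf8. With a sex term, Irf3 in T0:N0 was 0.10 and the difference in PI response 0.076 for Irf4 and 0.13 for Irf8. With DESeq2 and with its size factors, Irf7 in NAg:N0 was 0.044 and 0.044, its difference in Ag response -0.018 and -0.016, and Irf3 in NPI:NAg -0.015 and -0.015.

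Without 1 library, ranges that crossed 0 were -0.062 to 0.13 for Irf2 and -0.14 to 0.055 for Irf3 in T0:N0, -0.10 to 0.024 for Irf9 in TAg:NAg, -0.22 to 0.22 for Irf7 and -0.24 to 0.0064 for Irf9 in NAg:N0, -0.099 to 0.12 for Irf7 and -0.038 to 0.038 for Irf9 in TAg:T0, -0.28 to 0.065 for Irf7 in NPI:N0, -0.20 to 0.21 for Irf7 in the difference in Ag response, -0.18 to 0.15 for Irf4 and -0.57 to 0.17 for Irf8 in the difference in PI response, -0.033 to 0.063 for Irf3 and -0.29 to 0.10 for Irf7 in NPI:NAg, and -0.074 to 0.13 for Irf1 in TPI:TAg. The replicate block changed whether 2 members passed, neither of them called, both in the difference in PI response: Irf2 did not pass (-0.35, edgeR adjusted p = 0.058) and Irf9 passed (-0.35, edgeR adjusted p = 0.028). With 3 libraries per group, Irf5 had the widest intervals.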
